A study of Arabidopsis thaliana with 14 samples.

Results

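The 7 genes described here, grouped as hypoxia associated, are ADH1 (probe set 264953_at), AT4G17260 (245324_at), CML38 (259879_at), AT4G10270 (255807_at), AT5G10040 (250464_at), AT2G17850 (264846_at) and AT3G55790 (251755_at), taken from 22810 probe sets on the Affymetrix ATH1 array. They were chosen from their values in these same arrays, with attention to how they differed between genotypes at 100 µM boron, so the levels at 100 µM and every difference that contains them are given as description, with no test. The platform annotation used names 6 of the 7. For 264953_at the name ADH1 comes from the list of members itself.

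Roots of 12-day-old Arabidopsis thaliana seedlings, ecotype Col-0, were profiled after 10 days on solid medium with 100 µM boron and a further 2 days at either 0.3 µM (low) or 100 µM (sufficient) boric acid. At each level there was 1 array from each of 7 genotypes, 14 arrays in all. In 3 of them, wild type and the bor1 and bor2 single mutants, the boric acid channel gene NIP5;1 was intact. The other 4 carried nip5;1, and are called channel mutants here. They are the nip5;1 single mutant, called the channel single mutant, and its double mutants with bor1, bor2 and nip6;1, called the bor1, bor2 and nip6;1 double mutants, while bor1 and bor2 alone name the single mutants. For channel mutants the labels note poor growth of root and shoot under boron limitation. BOR1 and BOR2 encode borate exporters and NIP6;1 a related channel. No genotype has a replicate array at either level, so neighbouring genotypes in any order of levels cannot be separated by a spread of their own, and no batch or scan date is given in the sources used here.

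When oxygen runs short, plant cells stop degrading the group VII ethylene response factors, which an oxygen-dependent N-degron pathway otherwise removes. These factors switch on a compact set of genes that is shared by most cell types, known as the core hypoxia genes. The set contains the enzymes of fermentation, which keep glycolysis running without respiration, together with signalling proteins and many small proteins of unknown role. In whole roots, a change in the number of responding cells and a change in transcript per cell cannot be told apart.

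The fermentation enzyme ADH1, alcohol dehydrogenase, makes ethanol from acetaldehyde and regenerates NAD+. At 100 µM boron its MAS5 signal, a linear intensity, was 3788 in wild type, 1129 in bor1, 478 in bor2, 495 in the channel single mutant, and 1492, 4153 and 1001 in the double mutants with bor1, bor2 and nip6;1. In the 0.3 µM arrays the values were 294, 268, 406, 478, 351, 311 and 415 in the same order of genotypes. The highest array at 100 µM, the bor2 double mutant, was 8.69-fold above the lowest, bor2, and wild type stood close to the highest. At 0.3 µM the range was 1.78-fold, and its highest array, the channel single mutant (477.7), was level with the lowest array at 100 µM (477.6).

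Lactate dehydrogenase, the product of AT4G17260, turns pyruvate into lactate in the other fermentation branch. Its signal at 100 µM was 1064 in wild type, 834 in bor1, 934 in bor2, 730 in the channel single mutant, and 782, 1146 and 861 in the double mutants with bor1, bor2 and nip6;1. The corresponding 0.3 µM signals were 713, 779, 810, 737, 770, 796 and 717. It had the same highest pair of arrays at 100 µM as ADH1, the bor2 double mutant and wild type, on a much narrower range of 1.57-fold, and was nearly flat at 0.3 µM with a range of 1.14-fold.

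CML38 is a calmodulin-like calcium sensor that is induced by low oxygen and also by wounding. Its signal at 100 µM was 265 in wild type, 190 in bor1, 221 in bor2, 140 in the channel single mutant, and 244, 412 and 227 in the double mutants with bor1, bor2 and nip6;1. Low boron gave 69.9, 101, 799, 162, 126, 102 and 188. The arrays with the highest signal at 100 µM were again the bor2 double mutant and wild type, whereas at 0.3 µM bor2 stood far above the other 6 arrays.

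AT4G10270 belongs to a family of small wound-responsive proteins whose members are among the genes raised by low oxygen. At 100 µM its signal was 388 in wild type, 108 in bor1, 106 in bor2, 73.9 in the channel single mutant, and 189, 582 and 107 in the double mutants with bor1, bor2 and nip6;1. The low boron signals were 48.8, 49.1, 89.0, 91, 53, 41.2 and 77.3. The bor2 double mutant array thus carried the highest signal at 100 µM and the lowest at 0.3 µM.

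AT5G10040, which encodes a small protein of unknown role, had the widest range of the 7 over the genotypes at 100 µM. Its signal at 100 µM was 1024 in wild type, 164 in bor1, 19.8 in bor2, 23 in the channel single mutant, and 182, 954 and 75.4 in the double mutants with bor1, bor2 and nip6;1. In the low boron arrays AT5G10040 had 16.3, 3.80, 11.3, 15, 16.1, 23 and 24.3, which is at or under the floor of 20 signal units in 5 of 7 arrays. Wild type was at least 51.2-fold above bor2 at 100 µM, since bor2 lay under the floor, and at 0.3 µM no genotype approached the signals of wild type or the bor2 double mutant at 100 µM.

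AT2G17850 encodes a rhodanese-family sulfurtransferase-like protein. At 100 µM its signal was 541 in wild type, 118 in bor1, 32.7 in bor2, 27.9 in the channel single mutant, and 132, 612 and 73.9 in the double mutants with bor1, bor2 and nip6;1. The 7 signals at 0.3 µM were 41.9, 26.1, 15.4, 41.4, 16.4, 30.7 and 36.6, with 2 arrays under the floor. The range at 100 µM was 21.9-fold, from the channel single mutant to the bor2 double mutant.

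AT3G55790, for which no role is given here, followed another course. It was not among the genes with a named probe set on the core hypoxia list used below. Its signal at 100 µM was 291 in wild type, 505 in bor1, 41.1 in bor2, 333 in the channel single mutant, and 231, 228 and 348 in the double mutants with bor1, bor2 and nip6;1. Signals at 0.3 µM were 21.3, 39.4, 468, 26.2, 31.1, 24.3 and 49.8. In 6 genotypes it was high at sufficient and low at low boron, and bor2 showed the opposite at both levels.

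**Figure D1:**
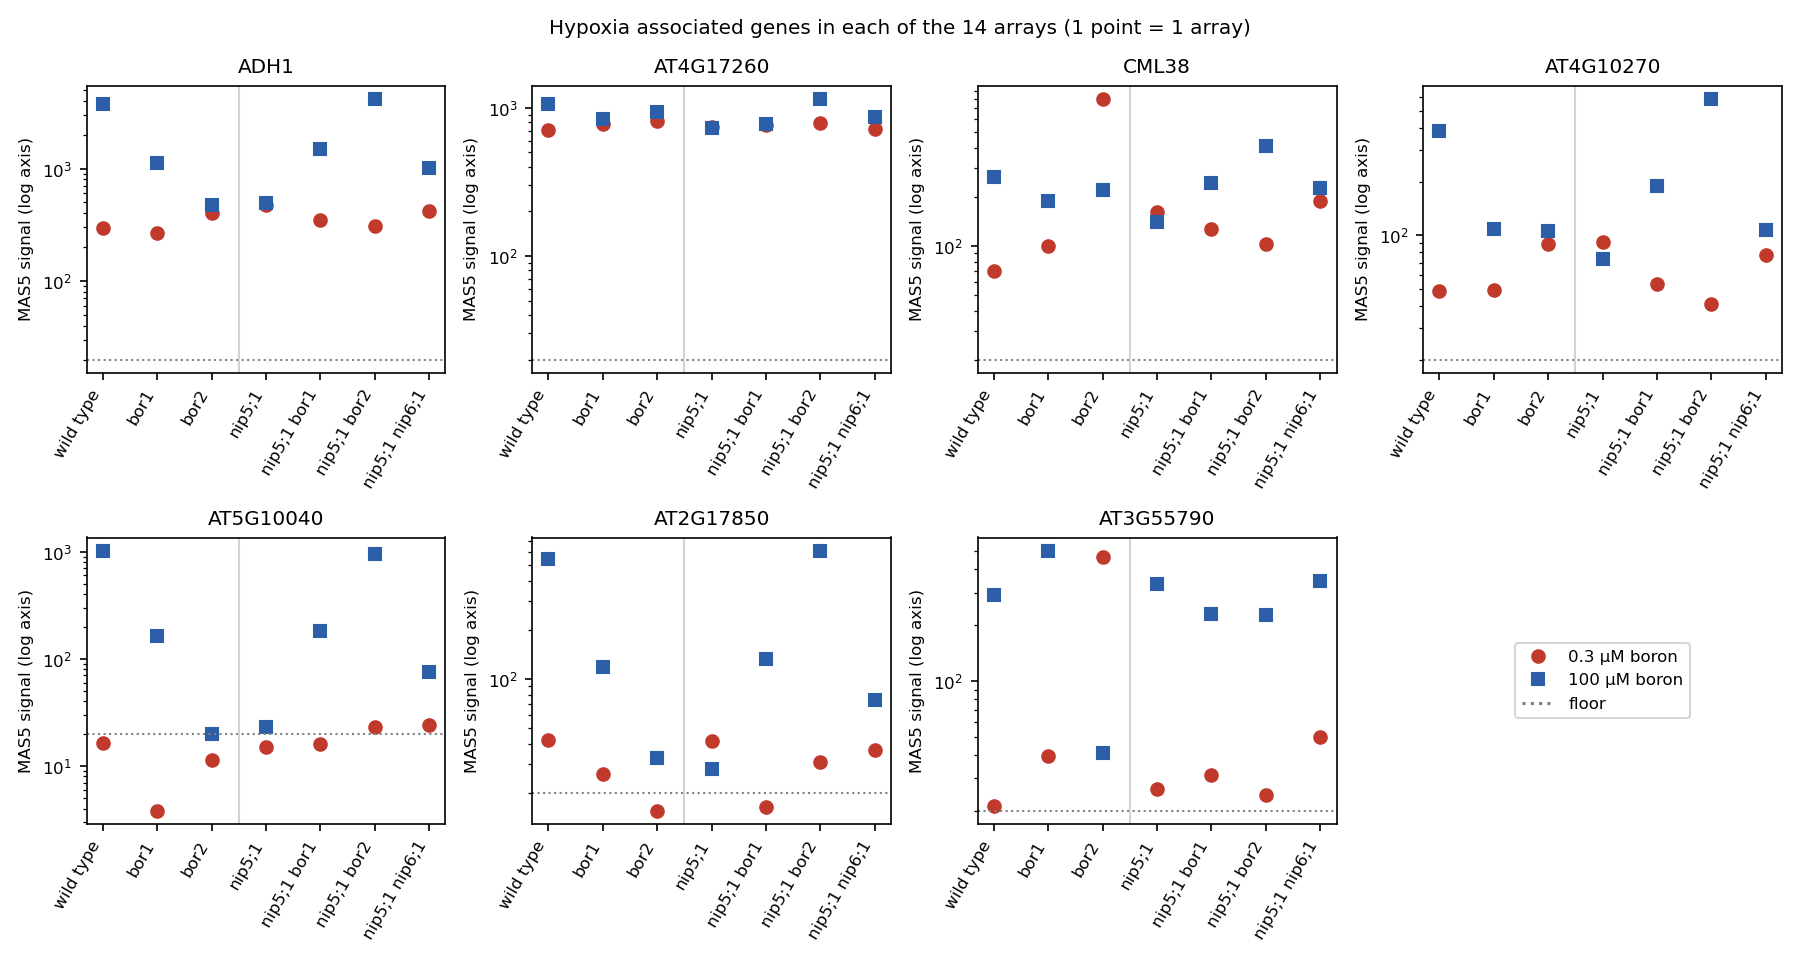
MAS5 signal (log axis) of the 7 genes in each genotype at 0.3 µM (circles) and 100 µM boron (squares); each point is 1 array, the dotted line is the floor of 20 units, and the vertical line separates intact genotypes from channel mutants. Wild type and the bor2 double mutant are the highest squares for 6 of the 7 genes. The bor2 array is the highest circle for CML38, AT3G55790 and, by a small margin, AT4G17260.

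For 6 of the 7 genes, all but AT3G55790, wild type and the bor2 double mutant were the highest pair of arrays at 100 µM, in one order or the other. Of all 13648 tested probe sets 4.32% had that pair highest, but the pair was picked out after the values were seen and the genes were chosen on these arrays, so nothing is read from the count. Between genotypes at 100 µM 6 of 7 ranged at least 2-fold, all but AT4G17260, and 5 ranged at least 4-fold, all but that gene and CML38, where 5.63% and 0.462% of tested probe sets did, a contrast that chose them. Below the pair, the order was also shared. ADH1, AT4G10270, AT5G10040 and AT2G17850 each had the bor1 double mutant, then bor1, then the nip6;1 double mutant in the next 3 places. The lowest array was bor2 for ADH1 and AT5G10040 and the channel single mutant for AT4G10270 and AT2G17850, with the other of these single mutants just above it.

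As a description over the 7 arrays at 100 µM, which share their array and scaling between genes, the Spearman rank correlations of these 4 genes with one another ran from 0.93 to 1 and the Pearson correlations of their log2 signals from 0.91 to 1.00. Without wild type and the bor2 double mutant, the 5 remaining arrays gave 0.90 to 1 and 0.71 to 0.99. The 4 genes were singled out for this shared order, so these values restate it. CML38 had Spearman correlations of 0.79 to 0.89 with the 4, falling to 0.50 to 0.70 over the 5 arrays. AT4G17260 had 0.46 to 0.64, falling to -0.40 to 0.00. AT3G55790 had correlations of -0.46 to 0.00 with the other 6.

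At 0.3 µM the correlations were lower and of mixed sign. The 6 pairs among ADH1, AT4G10270, AT5G10040 and AT2G17850 had Spearman correlations from -0.32 to 0.82 with a median of 0.14, on values that for AT5G10040 were mostly under the floor. Without wild type and the bor2 double mutant, all 6 were above 0, from 0.20 to 0.90 with a median of 0.40. Over all 21 pairs of members the median was 0.07 at 0.3 µM and 0.75 at 100 µM. ADH1, AT4G10270 and CML38 did keep similar orders at low boron, with Spearman correlations of 0.82 between ADH1 and either of the others and 0.79 between AT4G10270 and CML38. Those of CML38 were 0.89 and 0.77 without bor2. ADH1 and AT4G10270 were led by the channel single mutant there and not by the pair that led at 100 µM. CML38 and AT3G55790 had a Pearson correlation of 0.95 at 0.3 µM, which was 0.63 without bor2.

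The order at 100 µM crossed the NIP5;1 classes. For none of the 7 genes were the 3 intact genotypes and the 4 channel mutants separate at 100 µM. Classes that did not overlap were rare in general, at 3.96% of tested probe sets, so nothing is read from this count. ADH1 averaged 1798 ± 1753 (SD, n = 3) in intact genotypes and 1785 ± 1630 (n = 4) in channel mutants, and each class held one of the highest arrays. For 6 of the 7 genes, bor2 was below wild type and the bor2 double mutant above the channel single mutant. AT3G55790 was the exception, lower by both comparisons (-2.83 and -0.55). For ADH1, bor2 was 2.99 log2 units below wild type, whereas the bor2 double mutant was 3.07 above the channel single mutant. For AT2G17850 the same comparisons were -4.05 and 4.46, and for AT4G10270 -1.87 and 2.98. For AT5G10040 bor2 was at least 51.2-fold below wild type and the bor2 double mutant was 41.5-fold above the channel single mutant. The corresponding bor1 comparisons had opposite signs too, with ADH1 differences of -1.75 against wild type and 1.59 against the channel single mutant. Each of these differences sets 1 array against 1 array and has no replicate check.

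On the log2 scale, with values under 20 raised to 20, ADH1 was lower at 0.3 than at 100 µM in 7 of 7 genotypes, against 4.12% of tested probe sets, with differences of -3.69 in wild type, -2.07 in bor1, -0.24 in bor2, -0.05 in the channel single mutant, and -2.09, -3.74 and -1.27 in the double mutants with bor1, bor2 and nip6;1. The 13.3-fold difference in the bor2 double mutant and the 1.04-fold difference in the channel single mutant thus belong to the same gene and to lines that share the nip5;1 mutation. AT4G10270, AT2G17850 and AT4G17260 were lower at low boron in 6 genotypes and higher in the channel single mutant (0.30, 0.57 and 0.01).

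AT5G10040 was lower in 6 genotypes, with a difference of -5.37 in the bor2 double mutant, and at least 51.2-fold in wild type, whose array at 0.3 µM lay under the floor. In the channel single mutant the difference was only -0.20, from 23 at 100 µM to a 0.3 µM signal under the floor. For bor2 both AT5G10040 arrays lay under the floor. The differences of AT3G55790 were of like size in 6 genotypes, from -3.77 in wild type to -2.81 in the nip6;1 double mutant, and 3.51 in bor2. CML38 was lower in 5 genotypes, down to -2.01 in the bor2 double mutant, and higher in the channel single mutant (0.21) and bor2 (1.86). All 7 genes were lower at 0.3 µM in 5 or more genotypes, against 31.5% of tested probe sets. These differences contain the values at 100 µM that chose the genes.

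**Figure D2:**
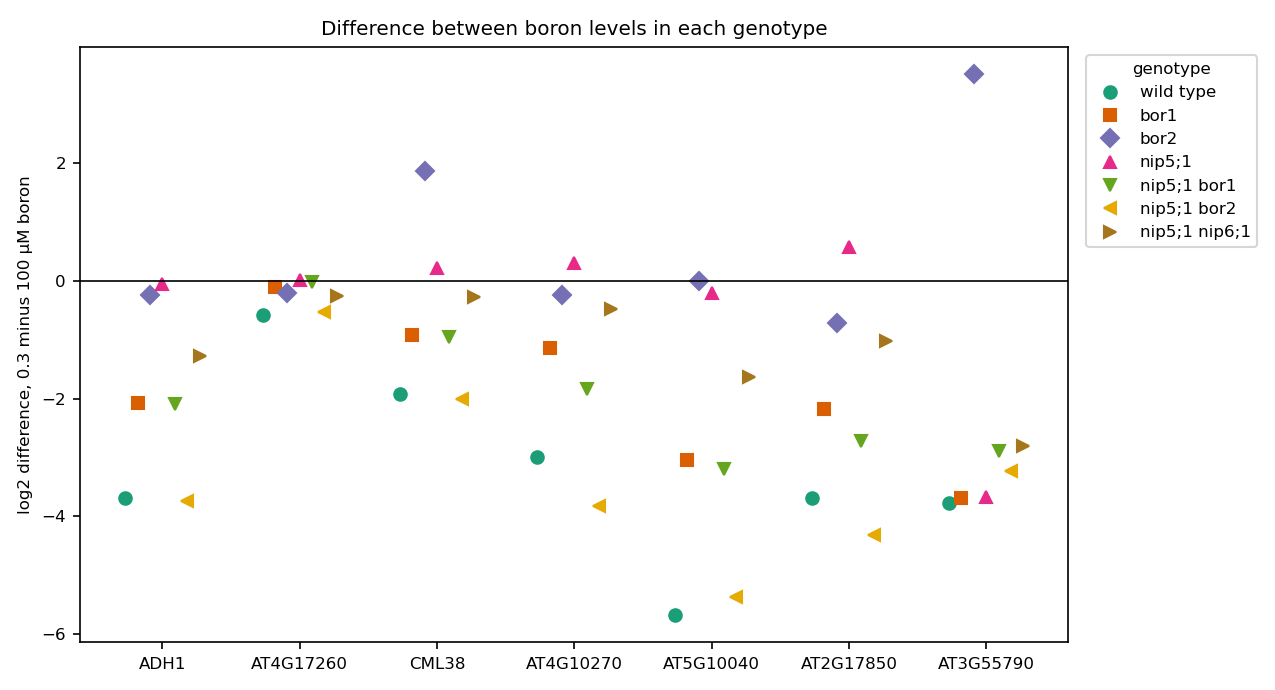
Log2 difference of signal between 0.3 and 100 µM boron (vertical axis) for each of the 7 genes, 1 point per genotype. Wild type and the bor2 double mutant have the most negative values for 6 genes, and bor2 is the point above 3 for AT3G55790.

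The rule did not use the contrast between NIP5;1 classes at 0.3 µM, and there the 4 channel mutants were compared with the 3 intact genotypes in limma, a linear model fitted across all tested probe sets. Genotypes stand in for replicates in that fit, so its error holds their own differences. No member passed the adjusted p threshold of 0.05, and none had an unadjusted p under 0.05, where 0.337% of tested probe sets passed (46 of 13648, 0.264% higher and 0.0733% lower in channel mutants), with 1495 at an unadjusted p under 0.05. ADH1 was 0.27 (SE 0.18) higher in the 4 channel mutants, with a mean of 389 ± 73.0 (SD) against 322 ± 73.1 in the 3 intact genotypes (limma adjusted p = 0.639), and the classes overlapped. AT4G17260 differed by -0.02 (SE 0.09, limma adjusted p = 0.952), the narrowest bound among the members.

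The other 5 members had wider errors at 0.3 µM. AT4G10270 differed by 0.07 (SE 0.34) and AT2G17850 by 0.15 (SE 0.42). AT5G10040 lay under the floor in all 3 intact genotypes and in 2 of the 4 channel mutants, so its fitted difference of 0.12 (SE 0.42) has no meaning as a size, and it was 0.45 with an offset of 16 in place of the floor. These 3 genes and AT3G55790 were too dim at 0.3 µM to pass the filter there and entered the fit through their 100 µM signal. CML38 differed by -0.34 (SE 0.69) and AT3G55790 by -1.22 (SE 0.88), and both signs rested on bor2, since without that genotype the differences were 0.75 and 0.12. AT2G17850 also turned without bor2, to -0.09. The sign of AT4G10270 turned without wild type, bor1, the channel single mutant or the nip6;1 double mutant, with a lowest value of -0.11. Classes did not overlap for 0 of 7 members and for 10.3% of tested probe sets.

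The count of 46 was 211 without bor2, 20 without wild type, 22 without bor1, 9 without the channel single mutant, 15 without the bor1 double mutant and 22 without the nip6;1 double mutant. All 7 members passed the filter, which kept the brightest 60% of probe sets as judged by their mean over the 14 arrays, but over the 0.3 µM arrays alone it would have kept 3, ADH1, AT4G17260 and CML38. Over these arrays 4 members ranged at least 2-fold between genotypes (CML38, AT4G10270, AT2G17850 and AT3G55790), against 10.0% of tested probe sets and 15.2% of all probe sets, and CML38 and AT3G55790 ranged at least 4-fold, against 1.50%. Without bor2 the same 4 ranged at least 2-fold, against 5.71%. Of these 4, AT4G10270, AT2G17850 and AT3G55790 were dim at 0.3 µM, with mean signals of 64.2, 29.8 and 94.2. The lowest mean that passed the filter on those arrays alone was 113. The shares of 1.50% and 5.71% are of tested probe sets, and no share of all probe sets is given for them. A comparison of dim members with brighter probe sets cannot show an excess, so nothing is read from these counts.

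The bor2 array at 0.3 µM stood apart. Its median Spearman correlation with the other arrays of that level was 0.946, against 0.966 to 0.980 for the others. It was the highest array for CML38, AT3G55790 and AT4G17260, 3 of 7 members, where 15.5% of tested probe sets had it highest. CML38 was 799 there and 69.9 to 188 in the other 6 genotypes, and AT3G55790 was 468 against 21.3 to 49.8. The margin was small for AT4G17260, at 810 against 713 to 796. AT3G53400, which was high at low boron in every genotype, had signals of 1851 and 121 in the bor2 arrays labelled 0.3 and 100 µM, against 1574 to 3767 and 140 to 184 in the others. This is 1 gene, and what set the bor2 array apart was not tested.

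Among 9 other genes of a touch and calcium list with a named probe set, the bor2 array at 0.3 µM was the highest for 7, against 15.9% of all 22746 probe sets. STZ, a zinc finger repressor of stress responses, had 4149 there and 228 to 656 in the other genotypes. CML23, a calmodulin-like protein, had 1071 against 213 to 275, and the calcium-binding AT2G46600 had 3321 against 1070 to 1807. CML42 was an exception, with its highest 0.3 µM signal of 918.5 in wild type and 892 in bor2. The shoot genes RCA and LHCB4.1, rubisco activase and a light-harvesting protein, summed to 2680 in that array and to between 939 and 1932 in the other arrays at 0.3 µM, and their part in the CML38 and AT3G55790 values was not tested. None of these touch list or shoot genes passed the class test at 0.3 µM, where 6 and 2 of them, CML38 included, were tested. Of all tested probe sets 0.337% passed, so nothing is read from this either.

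For wild type and the bor2 double mutant at 100 µM the same checks gave mixed values. The median Spearman correlations with the other arrays of the level were 0.981 for wild type and 0.975 for the bor2 double mutant, within the range of 0.973 to 0.981 of all 7. The ratio of 3′ to 5′ GAPDH probe sets, a sign of RNA integrity, was 1.77 in wild type, the highest of the level, and 1.36 in the bor2 double mutant, against 1.15 to 1.60 in the other 5. Both summed marker levels were lowest in this pair, by small margins, but the single genes did not all show this. RCA was 417 in wild type and 391 in the bor1 double mutant, and LHCB4.1 was 933 in wild type and 924.5 in bor2. The shoot genes summed to 1350 in wild type and 1294 in the bor2 double mutant, against 1381 to 2283 in the other 5. The 9 touch and calcium genes summed to 3056 and 2926, against 3084 to 4353. The part of these markers and of the GAPDH ratio in the hypoxia gene levels was not tested. The root gene PYK10, a beta-glucosidase, lay between 16687 and 19899 in all 14 arrays, and the root hair expansins EXPA7 and EXPA18 between 862 and 1391 and between 923 and 1648.

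Beyond the 7 genes, a list of 46 core hypoxia genes had 23 entries with a named probe set. Of these entries 5 were members, all but AT3G55790 and ADH1. Among the other 18, wild type and the bor2 double mutant were the highest pair at 100 µM in 10, where 3.35% of all 22746 probe sets had that pattern. The Spearman correlation with ADH1 over the 7 arrays at 100 µM was above 0 in 18 of 18, from 0.18 to 0.96 with a median of 0.59, against a median of 0 for all probe sets. It was at least 0.8 in 8 of 18, against 1.88% of all probe sets. At 100 µM 14 of the 18 ranged at least 2-fold between genotypes, against 11.0% of all probe sets, and 10 did so at 0.3 µM, against 15.2%. In all, 11 were lower at 0.3 µM in 5 or more genotypes, against 24.3%. The list was drawn up with earlier results of these arrays known. The pair and ADH1 were picked on the same 100 µM values, so these counts are description and nothing is read from them. In the class test at 0.3 µM, 0 of the 19 list genes tested passed in either direction. Of all tested probe sets 0.337% passed, so nothing is read from that count.

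The listed genes with the brightest probe sets did not all follow ADH1. AT3G03270, a universal stress protein family member, had 1275 in wild type, 1032 in bor1, 815 in bor2, 766 in the channel single mutant, and 1059, 1545 and 937 in the double mutants with bor1, bor2 and nip6;1 at 100 µM, the same order of genotypes as ADH1 in all but the last pair. AT4G27450 had 5284 in wild type and 5196 in the bor2 double mutant against 2367 to 4707 in the others. AT1G19530 had 2918 and 2578 in these arrays against 855 to 2075.

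PDC2, a pyruvate decarboxylase that supplies ADH1 with acetaldehyde, had wild type and the bor2 double mutant highest too, at 1458 and 1432, but the other 5 arrays were at 906 to 1332 and its range of 1.61-fold was far below the 8.69-fold of ADH1. AT3G10020 was highest in the nip6;1 double mutant (2320), AT4G39675 in the bor1 double mutant (3061) and AT5G66985 in bor2 (1456). AT1G33055 was highest in wild type (1733) with the nip6;1 double mutant next (1389), and lowest in bor2 at both levels, with 388 at 100 µM and 181 at 0.3 µM. Of the fermentation and glycolysis list 4 of 20 entries had a named probe set, AT4G17260 and PDC2 among them. The others, the glycolytic enzyme GAPC2 and AT5G56350, a pyruvate kinase, ranged 1.12-fold and 1.30-fold at 100 µM. Of the list of oxygen sensing genes none of 15 did, so the ethylene response factors themselves were not analysed here.

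**Figure D3:**
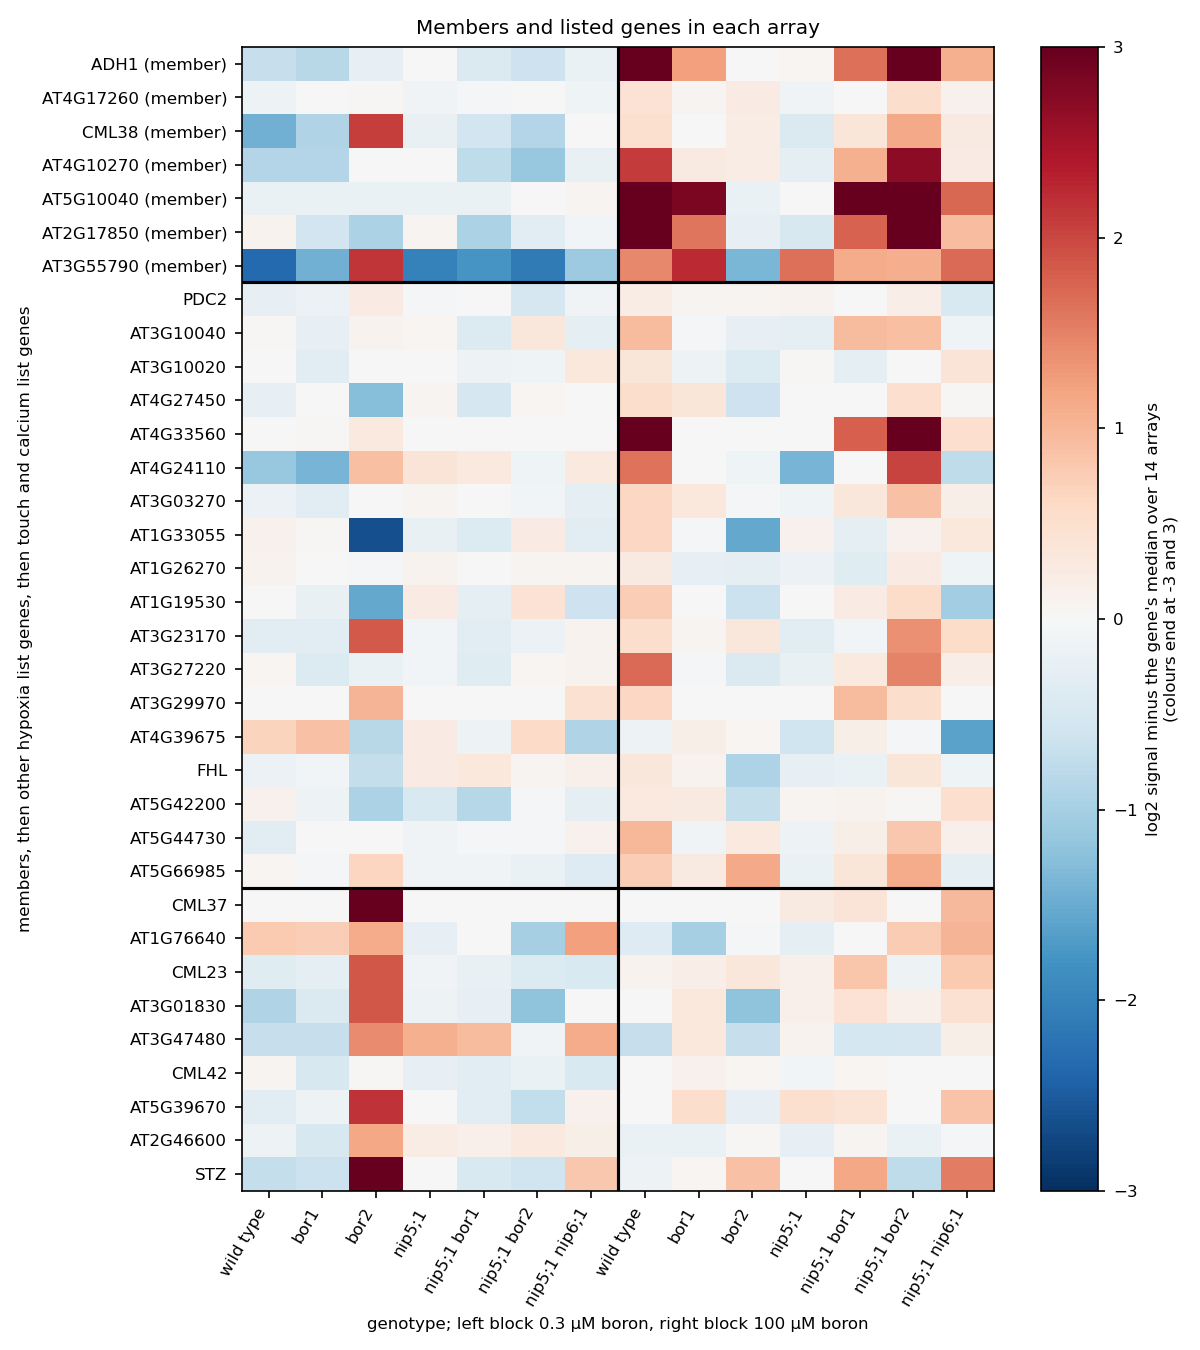
Log2 signal minus each gene's median over the 14 arrays (colour, ends at -3 and 3) for the 7 members, 18 other core hypoxia genes and 9 other touch and calcium genes, with 0.3 µM arrays on the left and 100 µM arrays on the right. ADH1, AT4G10270 and AT2G17850 are darkest red in wild type and the bor2 double mutant at 100 µM, and CML37 and STZ in bor2 at 0.3 µM. AT5G10040 is at or near the end of the colours in that pair and also in bor1 and the bor1 double mutant at 100 µM.

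The profile of the 7 genes was averaged after each was standardised over the 14 arrays. ADH1 (Pearson r = 0.97), AT4G10270 (0.96), AT5G10040 (0.94) and AT2G17850 (0.90) lay closest to this mean, followed by AT4G17260 (0.85), AT3G55790 (0.72) and CML38 (0.69), each of which is part of it. The 10 other tested probe sets most like it had r from 0.84 to 0.99 over the same 14 arrays. No gene is named for 6 of them, 253416_at (0.99), 260869_at (0.94), 252746_at (0.93), 245951_at (0.91), 249384_at (0.87) and 253987_at (0.86). The other 4 have one, AT3G03270 (0.92), AT5G47620 (0.85), AT3G27220 (0.84) and AT5G44730 (0.84). All but AT5G47620 are on the core hypoxia list. That list was drawn up with earlier results of these arrays known, so nothing is read from the overlap. AT5G47620, an RNA-binding protein family member that is on none of the lists, moved over a small range, from 1087 to 1363.

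The most alike, 253416_at, is not named in the annotation used and had r = 0.99. Its signal at 100 µM was 1429 in wild type, 413 in bor1, 155 in bor2, 95.3 in the channel single mutant, and 332, 1351 and 381 in the double mutants with bor1, bor2 and nip6;1. The 0.3 µM arrays gave 62.4, 65.6, 161, 87.8, 68.3, 70.7 and 115. It followed the mean profile at both levels taken alone, with r = 0.98 over the 7 arrays at 100 µM and 0.96 over those at 0.3 µM, whereas AT3G27220 had 0.96 and -0.07.

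**Figure D4:**
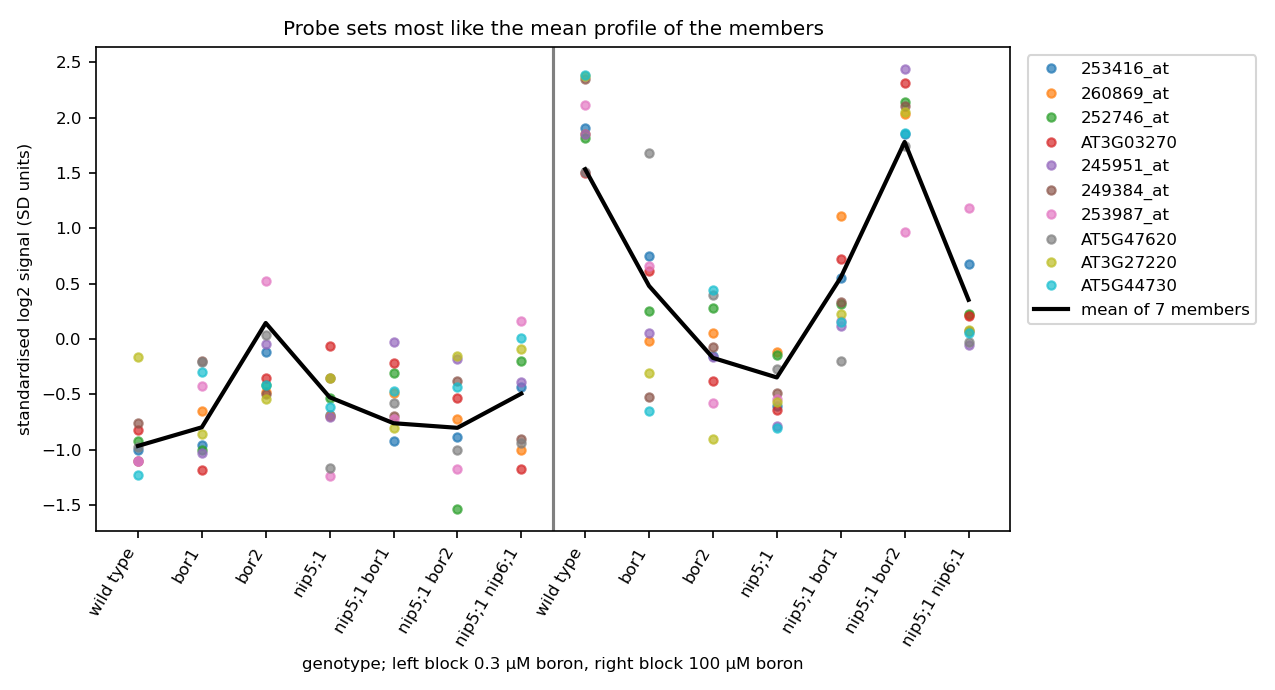
Standardised log2 signal (SD units) of the 10 probe sets most like the mean of the 7 members (points) and that mean (black line) in each of the 14 arrays, 0.3 µM on the left and 100 µM on the right. The line is highest in wild type and the bor2 double mutant at 100 µM.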

How the data were processed

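Root RNA of 7 genotypes at 2 boron levels was hybridised to 14 one-colour ATH1 arrays. The deposited values are linear MAS5 signal intensities, per the submitters' processing notes. The sources used here state no MAS5 version, settings or detection calls. Each array was scaled to a common trimmed mean (2% off each end, 500.04), values under 20, the 20th percentile, were raised to 20, and log2 was taken. From the deposited intensities, log2 differences and fold values were computed here. Of 22810 probe sets 64 were array controls, and the upper 60% of the others by mean signal (13648) were tested with limma 3.58.1 in R 4.3.3 (trend, Benjamini-Hochberg over all tested, 5 residual degrees of freedom). The fit was tested on simulated data. The number of arrays, 1 per genotype and level, limits the precision.

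The platform annotation gave 1 gene for 13513 probe sets, several for 503 and none for 8730, and 13436 of the named genes were in the RefSeq table. It names none for the 4 mutated boron transport genes, which were therefore not checked. The members and gene lists were chosen with earlier results of these data known. The text names all 7 members, the listed genes with the highest mean signal (up to 8 for core hypoxia, 4 for other lists) and the 10 probe sets with the highest Pearson r to the members' mean profile. AT3G53400 and the shoot genes RCA and LHCB4.1 serve as checks of the arrays. Alternatives were quantile normalization, an offset of 16 in place of the floor, other filters, limma without trend or with robust variances, all 14 arrays with genotype as a random block, a GAPDH covariate, and leaving out each genotype.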

Additional observations from a re-analysis of the deposited data

Results flagged for a closer look

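The gap of Dixon's test served here as a flag only, since the values at 100 µM chose the genes. Of 28 groups examined 3 were flagged, each with 1 of 7 arrays past its critical value. Chance flags about 1 independent group in 20, but these groups share arrays and some hold ties at the floor. In all 3 the flagged array was bor2. Gaps and ranges were taken on log2 signals with the floor applied, while the levels given beside them are linear signals. For CML38 at 0.3 µM the gap to the nearest array was 0.595 of the range, above the critical value of 0.568, with bor2 highest at 799. For AT3G55790 the gap was 0.725 at 0.3 µM, with bor2 highest at 468, and 0.683 at 100 µM, with bor2 lowest at 41.1. The genes were chosen on these arrays, so the gaps describe them and support nothing further.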

How the results depend on the processing

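The count of probe sets past the threshold in the class comparison at 0.3 µM was 46, and became 135 with all 14 arrays and genotype as a random block, 27 when the brightest 40% alone were tested, 3 when dim probe sets were kept, and 0 when limma was given the 3′ to 5′ GAPDH ratio as covariate, where 884 had an unadjusted p under 0.05. Leaving out 1 genotype gave 9 to 211. No member passed in any of these. Without 1 genotype, the log2 difference ran from 0.15 to 0.45 for ADH1, -0.075 to 0.017 for AT4G17260, -1.01 to 0.75 for CML38, -0.11 to 0.35 for AT4G10270, 0.07 to 0.16 for AT5G10040 (0.45 with an offset of 16 in place of the floor), -0.091 to 0.44 for AT2G17850 and -2.11 to 0.12 for AT3G55790. AT4G17260 was 0.0045 with the GAPDH covariate. Probe sets ranging at least 2-fold at 0.3 µM numbered 1369, and 779 to 1330 without 1 genotype. The cause of these shifts was not tested. The 98 boron differences recomputed under other settings moved by less than the SD over genotypes, which is a wide measure here, and 0 changed sign. The largest shift was 0.74 log2 units, for AT5G10040 in the bor2 double mutant, from -5.37 to -4.64 with the offset of 16. The brightest 40% hold ADH1 and AT4G17260 alone of the members, so it gave no value for the other 5. The highest pair at 100 µM, a count added after seeing the data, held 589 tested probe sets, 611 with quantile normalization, and 6 members under each. The class fit at 0.3 µM did not pair genotypes by background, and the nip6;1 double mutant has no partner with intact NIP5;1. For ADH1 at 0.3 µM, adding nip5;1 gave log2 differences of 0.70 in wild type, 0.39 in bor1 and -0.38 in bor2. Each of these sets 1 array against 1 array. Boron levels were compared within each genotype. Dim signal limits AT5G10040, AT2G17850 and AT4G10270 at 0.3 µM, and AT3G55790 in all genotypes there but bor2.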
